A study of Homo sapiens with 22 samples.

Results

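The genes described here belong to the surface, polarity and pericellular protease systems of epithelia. They are EPCAM and MUC1 at the cell surface, LLGL2 and CRB3 in polarity complexes, and matriptase (ST14), prostasin (PRSS8) and their inhibitors HAI-1 (SPINT1) and HAI-2 (SPINT2). The members were chosen by name, with earlier results of these data known. Each of the 8 has a row among the 36859 genes of the deposited table. RNA-seq was run on RPTEC, human renal proximal tubule epithelial cells immortalized with hTERT under G418, which all groups share, in 22 libraries that form 11 groups of 2 replicates. In media with 2% serum the groups were untreated WT cells, WT cells kept for 72 h with TGF-β at 10 ng per mL after 24 h in that medium, the KO clones KO1 and KO2 made with CRISPR in exon 3 of SETD2, and libraries labelled KO2 rescue. Grown in regular media with 10% serum were Rescue1, Rescue2 and 4 lines of transduced WT cells that carry eGFP, SOX2, OCT2 or PRRX1. KO1, KO2, Rescue1 and Rescue2 are each 1 clone, with the rescue clones picked from KO cells carrying a lentiviral FLAG-tagged SETD2 under blasticidin, whereas the transduced WT lines are bulk cells selected with puromycin. The labels do not say whether replicates are separate cultures, so p-values measure the spread between these libraries, which may be technical.

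Epithelial cells separate an apical from a basolateral membrane, and the Crumbs and PAR complexes on the apical side and the Scribble module on the basolateral side hold that boundary in place. CRB3 is the epithelial Crumbs transmembrane protein, and LLGL2 is a basolateral protein that opposes atypical protein kinase C. EPCAM is an adhesion glycoprotein of the lateral membrane that stabilizes claudins, and MUC1 is a transmembrane mucin of the apical glycocalyx. Matriptase and prostasin activate each other on the epithelial surface, process substrates such as EPCAM, pro-HGF and the epithelial sodium channel, and are held in check by HAI-1 and HAI-2, which carry Kunitz domains. The epithelial program is repressed by ZEB and Snail factors, which bind E-box sequences, and is upheld by OVOL and Grainyhead-like factors.

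Values below are normalized counts, recovered from the deposited log2 values, and a gene was called where limma gave it a log2 difference beyond 1 in either direction and an adjusted p under 0.05. Libraries held about 7700000 to 19000000 reads, so that a count of 0 in a library allows up to 2.46 to 4.72 normalized counts, a limit that covers counting error only. The SETD2 transcript was at 1852 and 2061 in WT, between 1046 and 1130 in the KO clones, and between 9764 and 10440 in Rescue1 and Rescue2. The libraries labelled KO2 rescue held 834.5 and 819.6, below KO2 (1050 and 1052), so the transcript goes against that label. Of 7 kidney epithelial markers PAX2, PAX8, KRT8 and KRT19 were detected in every library, with PAX8 between 1535 and 6561, while CDH16 was at 0 and 15.3 in the libraries labelled KO2 rescue. Of 10 proximal tubule markers 2 (HNF4A and SLC22A6) were at 0 in every library, and LRP2 did not exceed 2.29. The summed leukocyte markers ran from 0 to 20.1 over the libraries, with CD3E at 0 throughout. CD14, a monocyte gene, was at 0 in WT and at most 13.2 elsewhere, and was called higher than WT in KO1, with TGF-β and in eGFP. WT replicate 1 lay between WT replicate 2 and the TGF-β libraries in COL1A1 (11920, against 531.9 and 45010 to 46600) and in AQP1 (124, against 4.76 and 432 to 448). Comparisons of the members with WT are therefore given without 1 WT library where that changes them. The other genes named below were not examined in this way.

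**Figure D1:**
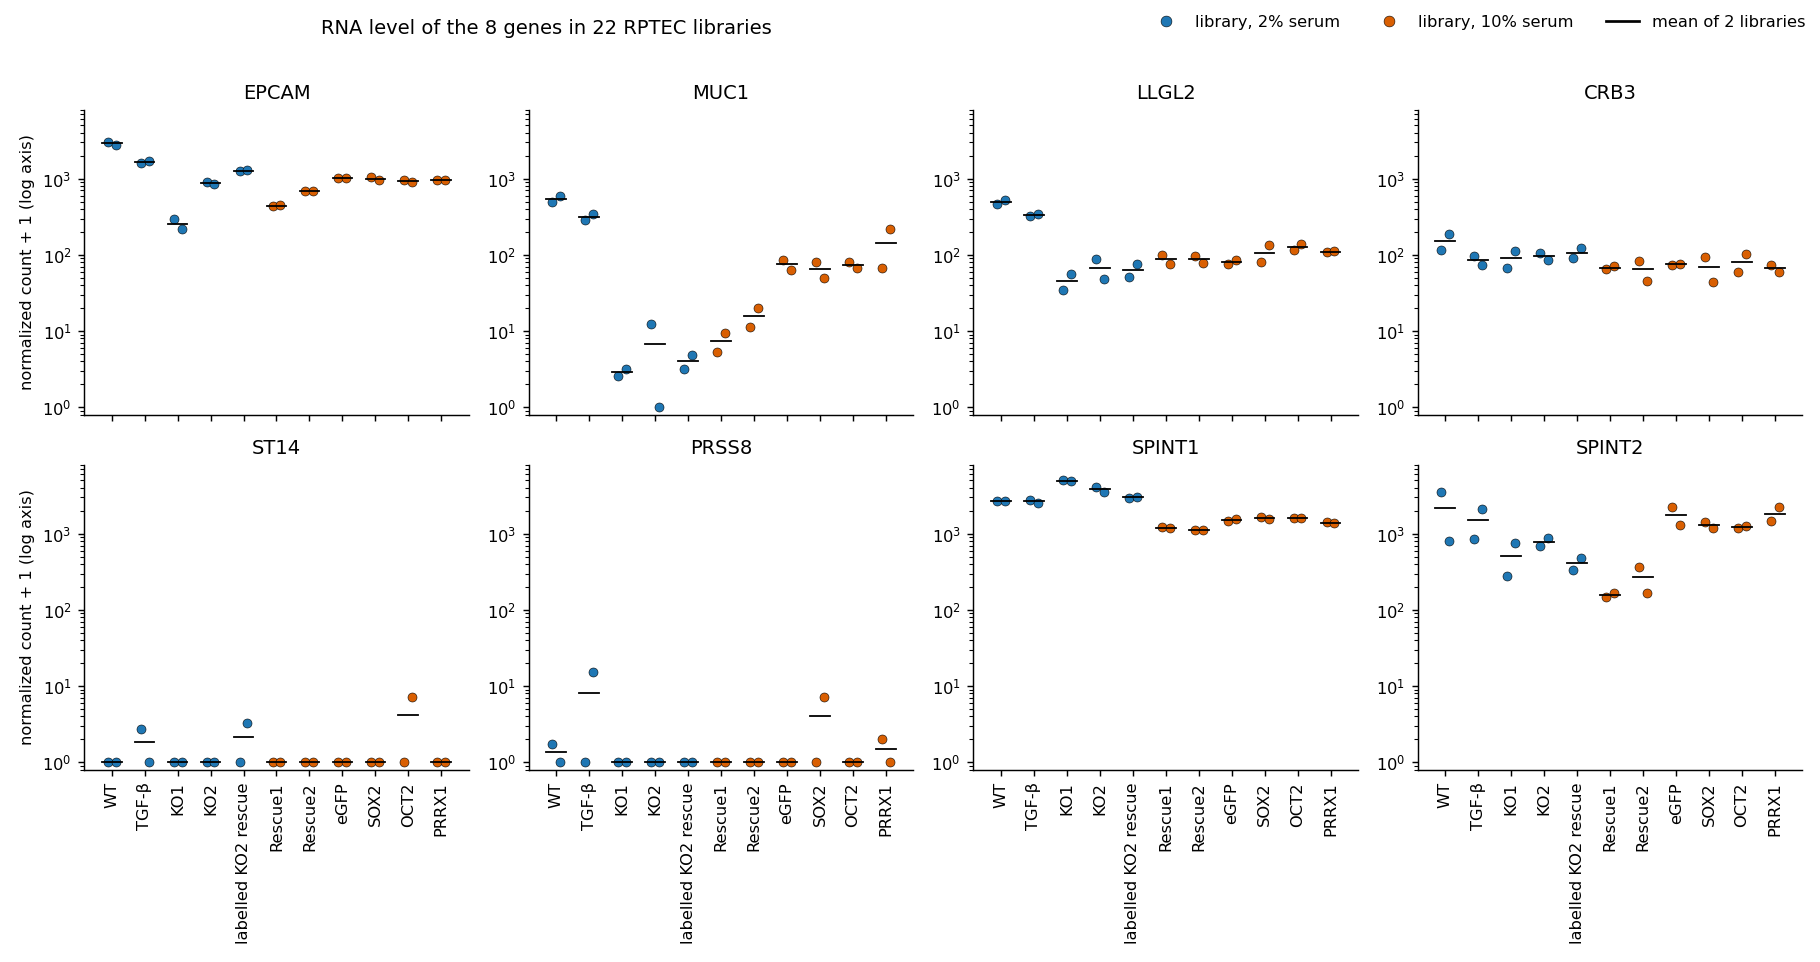
Normalized count plus 1 on a log axis for each of the 8 genes (panels) in 11 groups; each point is 1 library and each line the mean of 2. EPCAM, MUC1 and LLGL2 are highest in WT, ST14 and PRSS8 lie at or near 0 in most libraries, and SPINT1 is highest in KO1 while the 2 WT libraries of SPINT2 lie far apart (3515 and 805).

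Loss of SETD2 and treatment with TGF-β were first compared for the surface genes. EPCAM (ENSG00000119888, chromosome 2, 47345158 to 47387601, plus strand of GRCh38) was at 3050 and 2764 in WT, while TGF-β libraries held 1605 and 1722. It was at 296 and 218 in KO1, and 901 and 838 in KO2. WT was highest and KO1 lowest, and none of these 4 groups overlapped another. In KO1 the EPCAM transcript stood at 8.83% of the WT mean and in KO2 at 29.9%. The log2 difference from WT was −3.51 ± 0.12 (SE) in KO1 (adjusted p = 5.72e-12, limma) and −1.74 ± 0.12 in KO2 (adjusted p = 2.77e-08, limma).

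MUC1 (ENSG00000185499, chromosome 1, 155185824 to 155192916, minus strand) was at 493 and 595 in WT, while TGF-β libraries held 282.5 and 340.9. In KO1 it was at 1.57 and 2.20, and in KO2 at 11.5 and 0. The KO libraries rest on about 4 reads in KO1 and 11 in KO2 over both replicates, against about 1245 in WT. Their means were 0.346% of the WT mean in KO1 (exact Poisson 95% interval 0.0937% to 0.881%) and 1.06% in KO2 (0.569% to 2.04%), which covers counting error only. The fitted log2 differences of −7.56 ± 0.88 and −7.26 ± 0.88 (adjusted p = 6.10e-06 and 1.50e-05, limma) depend on the pseudocount at such counts. With only the WT and KO2 libraries in the fit the KO2 call was lost (adjusted p = 0.0534, limma). Clone KO2 also held 1 library at 0, and without its other replicate the fitted difference was −9.08.

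TGF-β gave a smaller change in EPCAM and MUC1. Of the 6 members that passed the filter of at least 10 normalized counts in 2 libraries, 0 were called with TGF-β, where 7.84% of the 14585 genes tested were called, and 1 member had an unadjusted p under 0.05. That gene was EPCAM, which fell by 0.80 on the log2 scale (SE 0.12, adjusted p = 0.00018, limma), to 57.2% of the WT mean. MUC1 stood at 57.3% of WT with TGF-β, a log2 difference of −0.80 with a 95% interval from −2.68 to 1.07. The MUC1 libraries of the 2 groups did not overlap, and the interval comes from 1 estimate of spread shared by all 11 groups. Scaling every library to the same total, which moved the median of all genes by −0.20 in this comparison, took EPCAM to −1.04 and past the fold threshold. With only the 4 WT and TGF-β libraries in the fit, the adjusted p of EPCAM was 0.071. Leaving out WT replicate 1 gave −0.73 for EPCAM, and leaving out the other WT library gave −0.88.

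The upstream sequences of MUC1, CRB3 and SPINT1 are shown, because these were the 3 members with a promoter sequence available. In the KO clones MUC1 lost almost all of its transcript, CRB3 did not, and SPINT1 was higher. The sequences are RefSeq promoters of GRCh38.p14, trimmed to the 250 bases before the transcription start and written 5′ to 3′ on the strand of the gene, with capitals marking the E-box CAGGTG or its reverse complement CACCTG. EPCAM, LLGL2, ST14, PRSS8 and SPINT2 were not in that table, so 3 of the 8 members matched.
MUC1 (chr1:155192916-155193165, minus strand): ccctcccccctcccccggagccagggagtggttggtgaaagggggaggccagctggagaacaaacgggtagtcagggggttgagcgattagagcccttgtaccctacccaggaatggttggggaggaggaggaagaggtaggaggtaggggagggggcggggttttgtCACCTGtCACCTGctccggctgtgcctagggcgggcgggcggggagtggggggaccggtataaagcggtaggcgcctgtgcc
CRB3 (chr19:6464021-6464270, plus strand): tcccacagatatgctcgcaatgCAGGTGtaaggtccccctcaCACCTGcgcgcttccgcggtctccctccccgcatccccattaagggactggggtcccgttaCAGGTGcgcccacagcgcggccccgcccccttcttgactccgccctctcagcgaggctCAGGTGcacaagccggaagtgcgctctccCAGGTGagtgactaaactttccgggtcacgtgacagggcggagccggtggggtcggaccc
SPINT1 (chr15:40843798-40844047, plus strand): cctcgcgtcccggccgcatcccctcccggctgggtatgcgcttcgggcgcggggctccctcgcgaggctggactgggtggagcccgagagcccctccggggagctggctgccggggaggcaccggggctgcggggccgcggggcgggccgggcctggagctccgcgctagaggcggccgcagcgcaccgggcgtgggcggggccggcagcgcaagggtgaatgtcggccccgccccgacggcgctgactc

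MUC1 held 2 E-box matches, at −82 and −75 from the start, and CRB3 held 5, at −228, −208, −147, −89 and −60. The SPINT1 sequence shown held none, and the window of a downstream RefSeq start of SPINT1 held 1, at −26. At least 1 match was present in 20.6% of 35116 RefSeq windows of 300 bases, at least 2 in 3.49% and at least 5 in 0.094%. The Grainyhead-like core AACCNGTT, searched on both strands, was present in 1.73% of the windows and in none of those of the 3 members. A match describes letters only and does not show binding.

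Among the polarity genes LLGL2 changed with loss of SETD2 and CRB3 was not called in the main fit. LLGL2 (ENSG00000073350, chromosome 17, 75525080 to 75575209, plus strand) was at 462 and 521 in WT, while TGF-β libraries held 319 and 348. It was at 33.9 and 54.6 in KO1 and at 87.3 and 47.0 in KO2. Both KO clones lay far below WT and TGF-β, and overlapped one another. The log2 difference from WT was −3.48 ± 0.34 in KO1 (adjusted p = 1.24e-06, limma) and −2.92 ± 0.34 in KO2 (adjusted p = 1.21e-05, limma), which left 9.01% and 13.7% of the WT mean. With TGF-β the difference was −0.55, with an interval from −1.29 to 0.18.

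CRB3 (ENSG00000130545, chromosome 19, 6463777 to 6467221, plus strand) ranged from 43.05 to 187 over the 22 libraries. WT held 113 and 187, TGF-β 94.9 and 73.3, KO1 67.2 and 113, and KO2 106 and 83.7. Of these 4 groups WT was the highest, with 1 KO1 library within 1 count of the lower WT library. The difference from WT was −0.73 in KO1 (interval −1.67 to 0.20) and −0.63 in KO2 (interval −1.56 to 0.30), so that the intervals hold both 0 and −1. With TGF-β it was −0.80 (interval −1.73 to 0.135), and −1.16 without WT replicate 1 and −0.44 without WT replicate 2. With all libraries scaled to a common total 5 of 6 members were called in KO1 against WT, CRB3 among them. Part of CRB3 overlaps SLC25A23 on the opposite strand, whose mean level was 173. The libraries were stranded, but whether strand was used in quantification is not given in the sources used here.

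Over the members tested, 4 of 6 were called lower in KO1, where 13.1% of all genes were called lower, and 3 of 6 were called lower in KO2, where 7.29% were. None was called higher. EPCAM, MUC1 and LLGL2 made up the calls in KO2, and SPINT2 was added in KO1. The median log2 difference of the 6 was −2.68 in KO1 and −1.42 in KO2, beside a median within 0.00314 of 0 over all genes. Because the members were chosen with earlier results of these data known, these shares and medians are descriptions only. Set against TGF-β directly, the KO clones were lower in 3 of 6 members (9.83% of all genes), by −1.82 ± 0.10 for EPCAM, −2.64 ± 0.30 for LLGL2 and −6.61 ± 0.76 for MUC1. These comparisons share the WT or KO libraries and are not independent of one another.

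**Figure D2:**
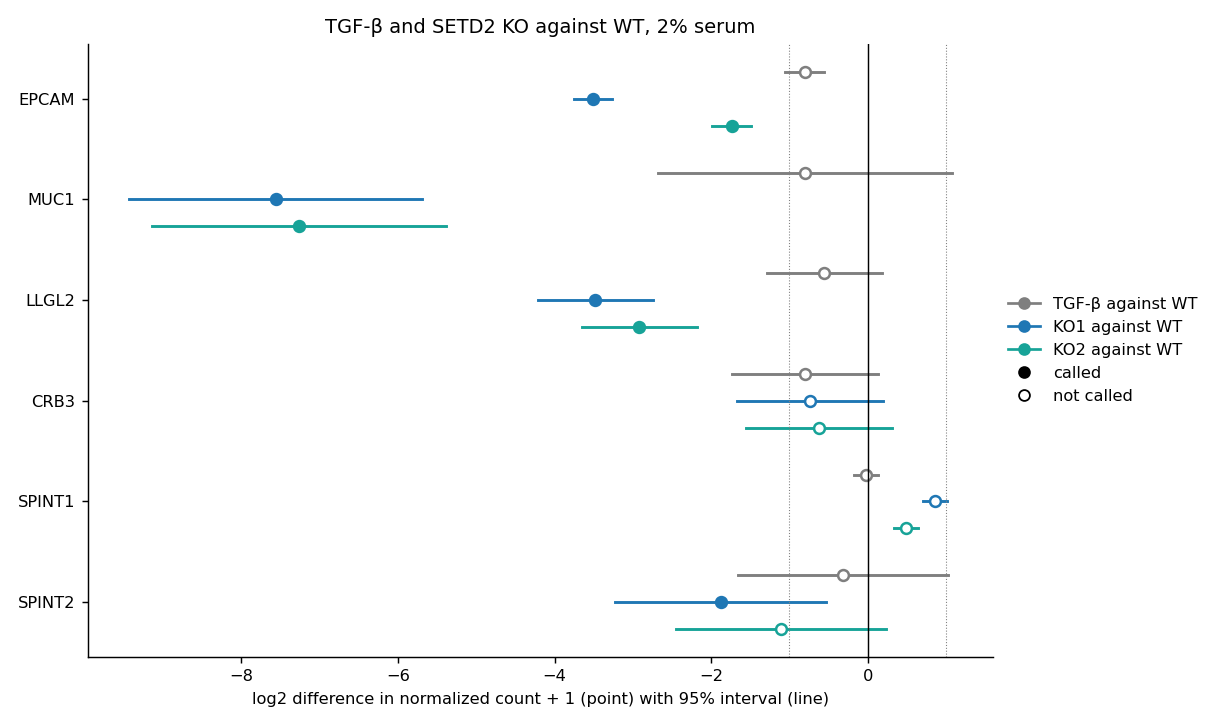
Log2 difference in normalized count plus 1 (x axis) of the 6 tested genes (y axis) for TGF-β, KO1 and KO2 against WT; points are estimates, lines 95% intervals, filled points were called, and dotted lines mark a log2 difference of 1. EPCAM, MUC1 and LLGL2 lie left of −1 in both KO clones, while SPINT1 lies right of 0 in both (0.86 and 0.49).

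The proteases and their inhibitors were compared next. ST14 (ENSG00000149418, chromosome 11, 130159782 to 130210362, plus strand) was at 0 in 19 of the 22 libraries, with 1.73 in 1 TGF-β library, 2.25 in 1 library labelled KO2 rescue and 6.22 in 1 OCT2 library. PRSS8 (ENSG00000052344, chromosome 16, 31131433 to 31135727, minus strand) was at 0 in 18 libraries, and elsewhere at 0.728 in 1 WT, 14.2 in 1 TGF-β, 6.13 in 1 SOX2 and 1.03 in 1 PRRX1 library. In each of these groups the other replicate was at 0. Neither gene passed the filter, so a difference between groups was not detectable at this depth. All 4 KO libraries were at 0 for both genes.

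SPINT1 (ENSG00000166145, chromosome 15, 40844018 to 40858207, plus strand), which encodes HAI-1, was by contrast the most abundant member per length in the KO clones. Its level was 1655 normalized counts per kilobase of transcript in KO1 and 1281 in KO2, against 910 in WT, where EPCAM stood at 1879 and SPINT2 at 1280 per kilobase. WT libraries held 2707 and 2715, TGF-β libraries 2797 and 2556, KO1 libraries 4995 and 4861, and KO2 libraries 4062 and 3567. KO1 was highest, KO2 next, and WT overlapped TGF-β. SPINT1 was higher than WT by 0.86 ± 0.07 in KO1 (adjusted p = 2.23e-07, limma) and by 0.49 ± 0.07 in KO2 (adjusted p = 0.000108, limma), which passed the test but not the fold threshold. After scaling all libraries to a common total, where the median gene moved by −0.39 in KO1 and −0.20 in KO2, these differences were 0.45 and 0.26 and stayed higher. With only WT and KO2 in the fit, the adjusted p for KO2 was 0.0508.

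SPINT2 (ENSG00000167642, chromosome 19, 38244035 to 38292615, plus strand), which encodes HAI-2, was at 3515 and 805 in WT, while TGF-β libraries held 854 and 2135. It was at 276 and 754 in KO1, and 693 and 876 in KO2. The replicates of WT lay further apart than most groups did from each other. WT replicate 1 exceeded replicate 2 by 4.37-fold, a larger gap than in 99.8% of 1696 genes of like level in those libraries, among which the median absolute log2 difference was 0.18. Over the 11 groups the fold between SPINT2 replicates ran from 1.08 to 4.37 with a median of 1.51, while it reached at most 1.14 for SPINT1 and 1.35 for EPCAM. The WT libraries also differed in COL1A1 and AQP1, with replicate 1 nearer to TGF-β in both, and the part of this in the SPINT2 values was not tested. With TGF-β, SPINT2 was 0.75 when WT replicate 1 was left out and −1.38 when the other was, and not called in either case.

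The call of SPINT2 in KO1 (−1.88 ± 0.63, adjusted p = 0.0272, limma) therefore rests on few libraries. It was −0.82 and not called without WT replicate 1, and −1.16 and not called without KO1 replicate 1. In KO2 the difference was −1.11 with an interval from −2.45 to 0.24, and it was −2.17 and called without WT replicate 2.

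The 2 KO clones were also set against each other. EPCAM was lower in KO1 than in KO2, with a log2 difference of −1.77 (SE 0.12, adjusted p = 1.26e-07, limma), and it was the single member called of 6, where 4.49% of all genes were called lower. SPINT1 was higher in KO1 by 0.37 ± 0.07 (adjusted p = 0.00274, limma), under the fold threshold and at an adjusted p of 0.101 after scaling to a common total. LLGL2, MUC1, CRB3 and SPINT2 overlapped between the clones. When the fit held only the 4 KO libraries EPCAM kept its value with an adjusted p of 0.0653.

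Whether SETD2 brings these genes back was examined in Rescue1 and Rescue2, which were grown in 10% serum. They were also transduced, selected with blasticidin and picked as new clones. Rescue, serum, vector, selection and clone therefore cannot be told apart in a comparison with the KO clones. EPCAM was at 438 and 447 in Rescue1 and 688 and 691 in Rescue2, between the levels of KO1 and KO2. MUC1 was at 4.31 and 8.55 in Rescue1 and 10.2 and 19.2 in Rescue2, within or above the range of the KO libraries. LLGL2 was at 98.9 and 75.7 in Rescue1 and 96.7 and 77.8 in Rescue2, which overlapped the highest KO2 library. The EPCAM transcript thus stood at 15.2% and 23.7% of the WT mean in 2% serum, MUC1 at 1.18% and 2.70%, and LLGL2 at 17.8% in both clones.

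Against the mean of both KO clones, 1 of 6 members was called higher (11.3% of all genes) and 2 were called lower (11.9%). The 1 higher was MUC1, at 1.70 ± 0.62 (adjusted p = 0.0361, limma). It rests on about 10 and 34 reads in the rescue clones, and with a pseudocount of 5 it was 0.89 with an adjusted p of 0.0817. The call was also lost without KO1 replicate 1, KO1 replicate 2, KO2 replicate 2, Rescue1 replicate 2 or Rescue2 replicate 2, where it ran from 0.79 to 1.78. EPCAM was higher by 0.23 ± 0.08 (adjusted p = 0.0297, limma), but this depended on the clone: it was 1.12 against KO1 alone and −0.65 against KO2 alone. The labels do not say which KO clone gave rise to each rescue clone. LLGL2 was higher by 0.71 ± 0.24 (adjusted p = 0.0271, limma), under the fold threshold. With all libraries scaled to a common total 4 members were called in this comparison, where the main fit gave 3.

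The inhibitors moved the other way. SPINT1 was at 1228 and 1175 in Rescue1 and 1109 and 1115 in Rescue2, below every other library of the series, and was lower than in the KO clones by −1.90 ± 0.05 (adjusted p = 5.29e-13, limma). SPINT2 was at 147 and 165 in Rescue1 and 367 and 165 in Rescue2, with 1 of the 4 libraries within the range of the KO clones. Its difference was −1.60 ± 0.44 (adjusted p = 0.00837, limma), and −1.22 and not called against KO1 alone.

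The eGFP line shares the 10% serum of the rescue clones, and was made from WT cells. It is a bulk line selected with puromycin, so clone and selection differ from the rescue clones along with genotype. EPCAM was at 1032 and 1031 in eGFP, MUC1 at 85.1 and 62.4, LLGL2 at 74.6 and 85.5, SPINT1 at 1460 and 1579, and SPINT2 at 2247 and 1303. Rescue1 was called lower in 3 of 6 members (6.79% of all genes), namely EPCAM (−1.22 ± 0.12, adjusted p = 2.40e-06), MUC1 (−3.38 ± 0.88, adjusted p = 0.0104) and SPINT2 (−3.45 ± 0.63, adjusted p = 0.000878, limma). The MUC1 call was lost without Rescue1 replicate 1 or eGFP replicate 1. Rescue2 was called lower in 1 of 6 (5.68%), SPINT2, at −2.79 ± 0.63 (adjusted p = 0.00445, limma). That count was 0 without Rescue2 replicate 2 or eGFP replicate 1. In Rescue2 EPCAM differed by −0.58 ± 0.12 (adjusted p = 0.00186, limma), under the fold threshold, and MUC1 by −2.30 with an adjusted p of 0.0724.

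LLGL2 was not called against eGFP in either rescue clone, at 0.11 in Rescue1 (interval −0.62 to 0.85) and 0.12 in Rescue2 (interval −0.62 to 0.85). SPINT1 was lower by −0.34 ± 0.07 in Rescue1 and −0.45 ± 0.07 in Rescue2. The rescue clones themselves differed in none of the 6 members by the call (0.994% of all genes), with 1 at an unadjusted p under 0.05. That was EPCAM, lower in Rescue1 by −0.64 ± 0.12 (adjusted p = 0.00796, limma).

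The libraries labelled KO2 rescue were in 2% serum and can be set against KO2 and WT without a change of serum, but their SETD2 transcript was not above that of KO2. EPCAM was at 1247 and 1306, MUC1 at 2.19 and 3.80, LLGL2 at 49.9 and 74.5, SPINT1 at 2982 and 3005 and SPINT2 at 337 and 481. No member was called against KO2 (0 of 6, with 4.17% of all genes called), with 2 at an unadjusted p under 0.05. EPCAM was 0.55 ± 0.12 higher than in KO2 (adjusted p = 0.00567, limma) and SPINT1 differed by −0.35 ± 0.07 (adjusted p = 0.00605, limma), both without overlap. Against WT 4 of 6 were called lower (5.51% of all genes), EPCAM by −1.19, LLGL2 by −2.99, MUC1 by −7.11 and SPINT2 by −2.06. The last was −0.998 and not called without WT replicate 1, and was also lost without either library labelled KO2 rescue.

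**Figure D3:**
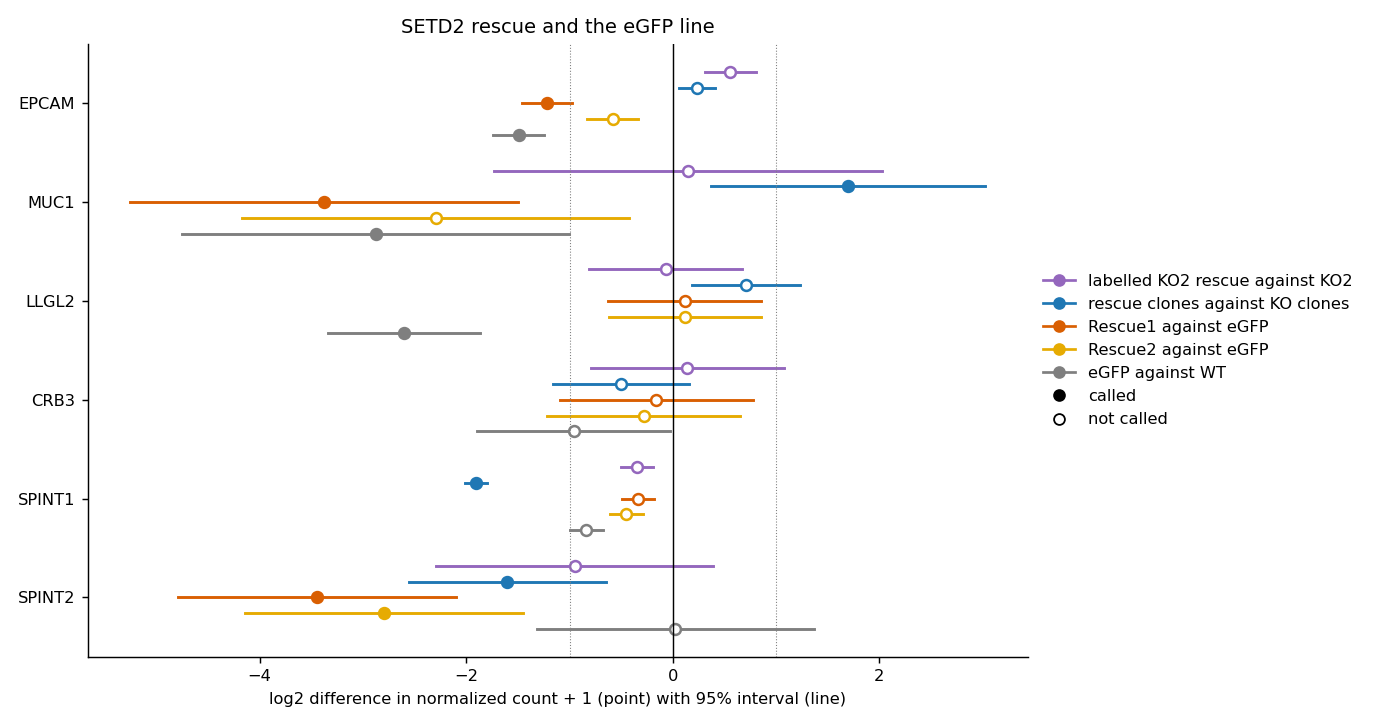
Log2 difference in normalized count plus 1 (x axis) of the 6 tested genes (y axis) in 5 comparisons of rescue clones and the eGFP line; points are estimates, lines 95% intervals, filled points were called. SPINT1 and SPINT2 lie left of −1 in the rescue clones against KO, and EPCAM in the same comparison lies at 0.23, near 0.

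The level of these genes also differed between WT in 2% serum and the eGFP line in 10% serum, which differ in serum, vector and selection, so that these cannot be told apart. Of 6 members 3 were called lower in eGFP (6.24% of all genes). EPCAM was lower by −1.49 ± 0.12 (adjusted p = 3.08e-07, limma) and LLGL2 by −2.60 ± 0.34 (adjusted p = 5.31e-05, limma), to 35.5% and 16.3% of the WT mean. MUC1 was lower by −2.88 ± 0.88 (adjusted p = 0.0247, limma), a call that was lost when any 1 of the 4 libraries was left out. SPINT1 was lower by −0.84 ± 0.07, under the fold threshold. CRB3 differed by −0.96 (interval −1.89 to −0.03, adjusted p = 0.125, limma) and was not called. For LLGL2 the eGFP level was as low as that of the rescue clones and overlapped that of KO2 in 2% serum. A level in the rescue clones relative to WT in 2% serum therefore combines serum, vector, selection, clone and genotype.

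No change of a member was called with SOX2, OCT2 or PRRX1. In each of the 3 comparisons 0 of 6 members were called, with 0 at an unadjusted p under 0.05, where 0.0206%, 0.0343% and 0.0411% of all genes were called. Over the 8 transduced WT libraries EPCAM ran from 903.5 to 1037 with a median of 968, and SPINT1 from 1369 to 1670 with a median of 1574. Both spans lay above all 4 rescue libraries. MUC1 ran from 49.05 to 218 with a median of 73.0, the highest being 1 PRRX1 library whose replicate held 65.5. The 95% intervals of EPCAM against eGFP spanned −0.30 to 0.19 for SOX2, −0.39 to 0.11 for OCT2 and −0.35 to 0.14 for PRRX1. Members less closely bounded than EPCAM included LLGL2, at 0.63 with OCT2 (−0.10 to 1.37), MUC1, at 0.71 with PRRX1 (−1.17 to 2.58), and SPINT2, at −0.48 with OCT2 (−1.83 to 0.86). The libraries did not overlap those of eGFP in 4 of 6 members for OCT2, 4 for PRRX1 and 0 for SOX2. The share of all genes without such overlap was not computed, so these counts are not read as changes.

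The order of the 11 group means gives each gene's pattern. EPCAM fell in the order WT, TGF-β, KO2 rescue as labelled, the 4 transduced lines, KO2, Rescue2, Rescue1 and KO1, and apart from the transduced lines no neighbours overlapped. MUC1 and LLGL2 were led by WT and TGF-β, which stood apart from all the others. For MUC1 the transduced lines came next and overlapped among themselves, and Rescue1, KO2, KO2 rescue and KO1 overlapped at the bottom. For LLGL2 every neighbour from PRRX1 down to KO1 overlapped the next. SPINT1 began with KO1, KO2 and KO2 rescue, followed by WT and TGF-β, which overlapped, and ended with Rescue1 and Rescue2.

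Across the 11 group means of log2 values the Pearson correlation was 0.87 between MUC1 and LLGL2, 0.79 between EPCAM and LLGL2, 0.73 between EPCAM and MUC1, and −0.02 between EPCAM and SPINT1. These are descriptions over groups that share serum and parental cells. Among the genes tested those closest to EPCAM in pattern were CFAP20DC (r = 0.97), NDUFA10 and PROS1 (both 0.94), and those closest to MUC1 included CTSH (0.97) and CNTNAP3C (0.96). STARD9 (0.95) was closest to LLGL2, TUBB4B (0.94) to CRB3, and TEX9 (0.98) to SPINT2. For SPINT1 they included PNMA1 and NME3 (both 0.98). These genes were picked as the most alike of 14585, so their correlations are high by selection.

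Other surface genes did not fall as a group. Of 18 listed mucins and surface glycoproteins 8 were tested, and 3 were called higher and 1 lower in both KO clones. Of all genes 25.0% were called in KO1 and 16.3% in KO2, in either direction. The share of all genes called in both clones in 1 direction was not computed. Counts in both clones, here and for the lists and markers below, therefore have no matching share beside them. CD24, a small GPI-anchored glycoprotein, was between 1618 and 3887 in WT, 10.96 and 30.7 in KO1, and 101.3 and 224 in KO2, a log2 difference of −7.01 ± 0.48 and −4.05 ± 0.48. CDCP1, which matriptase can cleave, was higher, by 2.94 and 1.78. MUC5AC was at 0 in both WT libraries and between 15.6 and 20.5 in the KO clones.

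Among polarity complexes 17 of 22 listed genes were tested. LIN7A and PARD3B were called higher and PATJ lower in both KO clones, where 25.0% of all genes were called in KO1 and 16.3% in KO2. PATJ, a scaffold of the Crumbs complex, was at 2229 to 2629 in WT, 490 to 773 in KO1 and 753 to 781 in KO2 (−1.97 ± 0.18 and −1.66 ± 0.18). LIN7A, which binds PALS1, was at 6.91 to 16.6 in WT, 57.6 to 120 in KO1 and 256 to 323 in KO2, and at 0 in both eGFP libraries. The median difference of the list was −0.07 in KO1 and −0.06 in KO2, near that of all genes. SCRIB, the namesake of LLGL2's module, was within 0.43 of WT in both clones and differed by −1.41 in eGFP. PARD3B, a PAR3 paralog, was at 2.68 to 35.0 in WT, and was higher by 3.53 and 2.94 in the KO clones and by 3.92 in eGFP. DLG5 was lower in eGFP, at −2.52, with 19.2 and 189 in its libraries.

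Of 16 membrane serine proteases 5 passed the filter. TMPRSS2 was at 0 in the WT and TGF-β libraries, and its mean was 5557 in KO1 and 3449 in KO2. Against a floor of 3 reads per library these are at least 2118-fold and at least 1315-fold higher. It was at 364 and 405 in the rescue clones and 486 in eGFP. CORIN was at 0 in WT and at means of 23.5 and 21.1 in KO1 and KO2. TMPRSS3 was at a mean of 16.9 in WT, and in the KO clones at 0 except 0.817 in 1 library.

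Of 11 serine protease inhibitors 8 were tested. TFPI and TFPI2 were called higher and SERPINA1 and SERPINE2 lower in both KO clones, where 25.0% of all genes were called in KO1 and 16.3% in KO2. SERPINE2, protease nexin-1, which can inhibit prostasin, was at 4299 to 5270 in WT, 850 to 1011 in KO1 and 873 to 919 in KO2 (−2.36 ± 0.13 and −2.41 ± 0.13), and it differed by −2.08 in eGFP as well. SERPINA1, the antitrypsin gene, stood at −2.09 and −1.65, and TFPI, tissue factor pathway inhibitor, at 2.67 and 2.34. TFPI2, a Kunitz inhibitor like HAI-1, was higher by 5.76 ± 0.64 and 4.49 ± 0.64. In the rescue clones against KO, 4 of the 8 were called lower and none higher, where 11.9% of all genes were called lower.

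Among substrates and receptors of the pathway 10 of 14 listed genes were tested. MET, the HGF receptor, was at 6435 to 7087 in WT, 24530 to 24620 in KO1 and 18040 to 19150 in KO2 (1.86 ± 0.06 and 1.46 ± 0.06), whereas its ligand HGF did not exceed 0.9005 in any library of the WT, TGF-β, KO and rescue groups. MST1R, the receptor of the HGF-like protein MST1, was lower, at −4.05 and −3.60. SCNN1A, the α subunit of the epithelial sodium channel, was at 143 to 173 in WT and differed by −2.96 in KO1, −2.49 in KO2 and −2.82 with TGF-β. F2RL1, the receptor PAR2, ran from 0 to 192 within KO1 alone and was not called.

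Of 18 listed regulators 12 were tested. ZEB2 was at 318 to 330 in WT, 2029 to 2044 in KO1, 2236 to 2280 in KO2 and 1593 to 1886 in eGFP, and was higher than WT by 2.65, 2.80 and 2.42. ZEB1 was not called in either KO clone and was higher by 1.19 in eGFP. ESRP2, an epithelial splicing regulator, stood at −4.51 and −3.42 in the KO clones. TWIST2 was called higher, by 1.96 and 2.33, but did not exceed 10.98 normalized counts there. SNAI2 was not called in either KO clone, but was called in eGFP, 3.95 above WT, and in the rescue clones, 2.76 above KO. OVOL2 was at 14.6 and 15.5 in WT and at 0 in the KO, rescue and eGFP libraries, and passed the filter through WT alone. GRHL2 was at or under the limit of a count of 0 in these groups, and CLDN7, the claudin partner of EPCAM, was at 8.09 and 15.2 in WT and did not pass 10 in the KO or rescue libraries. ZEB2, MUC1, EPCAM and LLGL2 thus differed from WT both in the KO clones and in eGFP, to unlike extents. As a share of the WT mean MUC1 was at 0.346% in KO1, 1.06% in KO2 and 13.6% in eGFP. EPCAM was at 8.83%, 29.9% and 35.5%, and LLGL2 at 9.01%, 13.7% and 16.3%. In the rescue clones ZEB2 was at 740 to 1090, below the transduced WT lines (1562 to 1886), and with TGF-β at 365 to 483. Whether ZEB2 or SNAI2 has a part in the levels of these members was not tested.

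With TGF-β other genes of these lists were called. Among surface genes CD24 stood at −2.42, CD9, a tetraspanin, at −1.06, and PODXL, an apical sialomucin, at 2.06. SLPI, the secretory leukocyte protease inhibitor, was at 86.2 to 88.8 in WT and 0.945 to 1.23 with TGF-β, and TFPI was lower, at −1.57. PRKCI, the atypical protein kinase C that LLGL2 opposes, was higher by 2.98 ± 0.98 (adjusted p = 0.0488, limma), with 2.12 and 20.6 in WT and 46.8 and 86.7 in TGF-β. Among regulators TP63 was higher by 3.50 and ELF3 stood at −2.41. OVOL2 stood at −2.84, with 4.04 and 0 in the TGF-β libraries. It passed the filter through WT alone, so its lower call is not read as a result.

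Markers of other cell types moved with the KO clones. The summed level of 5 fibroblast and pericyte markers ran from 827 to 12420 in WT, 223200 to 236200 in KO1 and 98880 to 102500 in KO2, and from 802 to 1501 in Rescue1 and Rescue2. This sum was 38430 to 40960 in the libraries labelled KO2 rescue, 46260 to 47710 with TGF-β and 1957 to 2334 in eGFP. It was made up mostly of DCN in the KO clones and of COL1A1 in TGF-β. Of 4 endothelial markers 1, KDR, was called higher in both clones, at means of 113 and 135.8 against 0.385 in WT. The summed kidney epithelial markers ran from 35990 to 40590 in WT, 17610 to 19140 in KO1, 25110 to 26080 in KO2, 25470 to 27080 in eGFP and 40550 to 45020 in Rescue1 and Rescue2. They were as high, at 43050 to 44010, in the libraries labelled KO2 rescue, whose SETD2 transcript was below KO2, and at 29780 to 30860 with TGF-β. KRT8 and KRT19 made up most of that sum and were called lower in KO1, where PAX8 was called higher, and none of the 7 was called in KO2. Of 10 proximal tubule markers ANPEP, CUBN and MME were called higher in both KO clones. In bulk RNA a lower level per cell and fewer cells with the transcript cannot be told apart, and the part of these markers in the changes of EPCAM, MUC1 and LLGL2 was not tested.

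**Figure D4:**
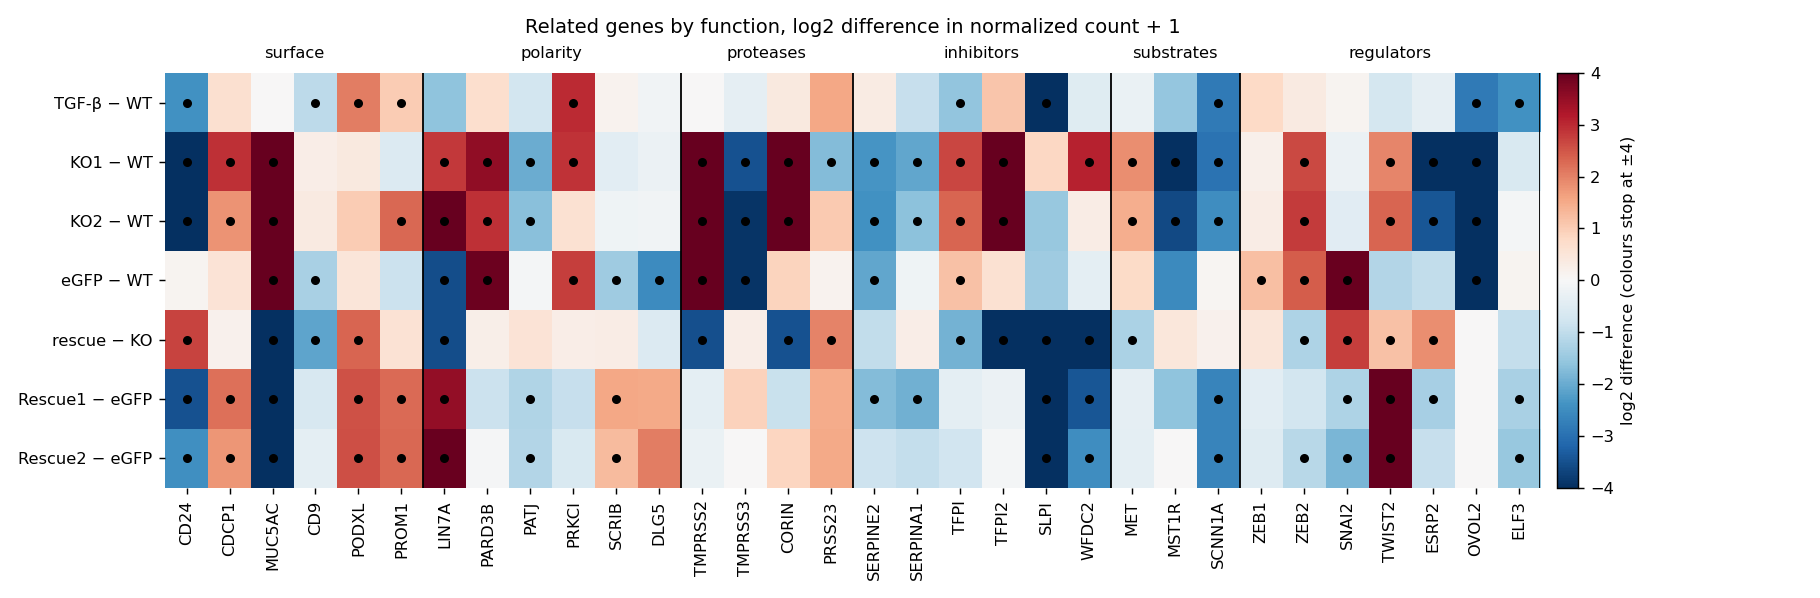
Log2 difference in normalized count plus 1 (colour, with colours stopping at ±4) of related genes (x axis, grouped by function) in 7 comparisons (y axis); black dots mark called genes. TMPRSS2, ZEB2 and TFPI2 are higher in both KO clones, CD24, ESRP2 and SERPINE2 are lower, and SCNN1A is lower both with TGF-β and in KO.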

How the data were processed

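Libraries were made with a stranded poly(A) RNA kit and sequenced in pairs. The authors quantified transcripts of the Ensembl 94 GRCh38 cDNA set with Salmon 1.9.0 and used DESeq2 1.26.0, and the deposited values are log2 values after a variance-stabilizing transformation of normalized counts, with a floor of 11.32 at a count of 0. Whether strand was set in quantification is not given in the sources used here. The transformation was inverted to normalized counts, and the spacing of low values gave about 7700000 to 19000000 reads per library.

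Of 36859 genes, 14585 reached 10 normalized counts in 2 or more libraries and were tested on log2(normalized count + 1) with limma 3.58.1 in R 4.3.3, with 1 mean for each of 11 groups, a trended prior and Benjamini-Hochberg adjustment over all genes tested. A fold on this scale understates changes of low genes. Count tests were not used, since the deposited values are not counts. Coordinates come from GENCODE 44 on GRCh38, where 33878 genes matched by identifier, and upstream sequences from RefSeq (GRCh38.p14). Scripts were tested on simulated data. Alternatives were other pseudocounts, filters and scalings, the deposited scale, a replicate block, fits of the compared groups alone and each library left out. Replicate numbers did not pair samples, with correlations between same-numbered deviations from −0.082 to 0.035. In no replicate pair was any value above 0 identical. All members and SETD2 were named. From each list the rule named genes called in both KO clones in 1 direction (at most 6), genes called with TGF-β or in another comparison (at most 3 each, largest change first) and a fixed set of pathway genes, and for each member it named the 3 genes most alike in pattern. The report omits some genes that the rule allows, identifiers without a symbol among them. The members and gene lists were chosen with earlier results of these data known. ST14 and PRSS8 did not pass the filter, and SCNN1G, SNAI1 and TMPRSS11E were not analysed here. Values of 2 genes on the lists, which the list counts include, are not reported here.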

Additional observations from a re-analysis of the deposited data

Results flagged for a closer look

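EPCAM differed between the 2 KO clones by −1.77 on the log2 scale (KO1 against KO2, limma), tested as a contrast of the clones. The difference ran from −1.99 to −1.55 when each of the 4 KO libraries was left out in turn. KO1 and KO2 are each 1 clone with 2 libraries.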

How the results depend on the processing

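Each library left out in turn moved the number of members called from 3 to 4 in KO1 against WT, KO2 against WT, KO against TGF-β and KO2 rescue as labelled against WT. It moved it from 2 to 3 in rescue against KO and Rescue1 against eGFP, from 0 to 1 in Rescue2 against eGFP, and it was 2 throughout in eGFP against WT. With all libraries scaled to a common total 1 member (EPCAM) was called with TGF-β. That scaling also gave 5 in KO1 against WT, with CRB3 added, and 4 in rescue against KO. On the values as deposited, where a log2 difference of 1 is a far larger fold, 1 member was called in KO1 against WT and 0 in the other 8 comparisons that had calls, although adjusted p stayed under 0.05 for 5 members in KO1 against WT and 4 in KO2 against WT (limma). With only the compared libraries in the fit the counts were 0 in KO1 against KO2 and in Rescue2 against eGFP. They were 2 in KO2 against WT and rescue against KO (MUC1 lost in both). They were 3 in KO1 and in KO2 rescue against WT (SPINT2 lost in both). With a pseudocount of 5 the count was 2 in Rescue2 against eGFP, where the main fit gave 1, and 2 in rescue against KO. A replicate block changed no call and no count; EPCAM stayed at −3.51 in KO1 under it. Over the log2 differences of the 6 members in all settings, 1114 kept direction and side of the threshold, 54 lost a call, 7 gained one and 43 turned direction.

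The turns were in values that had not passed the call. EPCAM in rescue against KO2 alone was −0.65. With quantile normalization LLGL2 in Rescue1 against Rescue2 was 0.0223, MUC1 in KO2 rescue against KO2 −0.0638, SPINT2 in eGFP against WT −0.0237 and MUC1 in OCT2 against eGFP −0.0394. With a pseudocount of 5 MUC1 in KO2 rescue against KO2 was −0.19. With a common total SPINT1 in KO2 rescue against WT was −0.0165 and SPINT2 in eGFP against WT −0.0093, and as deposited SPINT2 was −0.0449 there and MUC1 in OCT2 against eGFP −0.0001. The cause was not tested.

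With 1 library left out, the lowest and highest values were −0.0847 to 0.0452 for SPINT1 and −1.38 to 0.75 for SPINT2 with TGF-β, −0.0681 to 0.30 for CRB3 in KO against TGF-β, and −0.48 to 0.26 for CRB3 and −2.12 to 1.52 for MUC1 in KO1 against KO2. Against eGFP they were −0.0773 to 0.30 for LLGL2 in Rescue1, and −0.0383 to 0.27 for LLGL2 and −0.73 to 0.16 for CRB3 in Rescue2. In Rescue1 against Rescue2 they were −0.19 to 0.19 for LLGL2 and −0.32 to 0.57 for CRB3. In KO2 rescue against KO2 they were −0.51 to 0.37 for LLGL2, −0.0749 to 0.36 for CRB3 and −1.68 to 1.97 for MUC1, and SPINT2 ran from −1.04 to 1.09 in eGFP against WT. In SOX2 against eGFP they were −0.0156 to 0.72 for LLGL2, −0.12 to 0.0081 for EPCAM, −0.78 to 0.31 for CRB3 and −0.56 to 0.12 for MUC1. In OCT2 they were −0.33 to 0.45 for CRB3 and −0.22 to 0.22 for MUC1, and in PRRX1 −0.32 to 0.47 for SPINT2 and −0.15 to 1.56 for MUC1. Depth limits ST14, PRSS8 and the KO values of MUC1, which rest on few reads.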
